A study of Mus musculus with 7 samples.

Results

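The Slc15 peptide transporters were followed here through all probe sets that the platform annotation pairs with exactly 1 gene symbol equal to Slc15a1, Slc15a2, Slc15a3 or Slc15a4. These were 7 of the 45141 probe sets on the array and 4 of 17097 genes. Slc15a1 and Slc15a3 had 1 probe set each, Slc15a4 had 2 and Slc15a2 had 3. The family was chosen by the KO versus WT difference of Slc15a2, the largest among the genes first looked at, and the other members joined it by name, so the KO versus WT values of its members are given as a description, without a test.

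Slc15 proteins carry small peptides across membranes, driven by the proton gradient. Slc15a1 (PepT1) is the low-affinity, high-capacity carrier of dipeptides and tripeptides in the brush border of small intestinal enterocytes and is scarce in normal colon. Slc15a2 (PepT2) is the high-affinity carrier best known from kidney, choroid plexus and glia. Slc15a3 (PhT2) and Slc15a4 (PhT1) carry histidine and peptides, among them bacterial muramyl peptides, out of endosomes and lysosomes, and are prominent in immune cells.

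The samples were 7 Affymetrix arrays of sorted mouse tumour cells. The 4 WT arrays came from Mex3a Tom/+ animals and the 3 KO arrays from Mex3a tom/flox animals. Both groups also carried Villin CreERT2, a tamoxifen-inducible Cre active in gut epithelium, and 1 floxed copy of the tumour suppressor gene (APC fl/+). The WT animals therefore also carried the Tomato allele, with the other Mex3a copy left unfloxed. All animals had 4 tamoxifen injections and 5 days of 2% dextran sulfate sodium (DSS, which injures the colon lining), and colonic adenomas were taken 2 months later. Epcam-positive, Tomato-positive cells were sorted, so every sample holds cells in which the Mex3a promoter had been active, and RNA of 2000 cells was amplified over 24 cycles. The labels give neither the age of the animals nor whether an array is 1 animal or a pool, so the spread between arrays may be technical in part. Scan batch 1 held 2 WT arrays and 1 KO array, and scan batch 2 held 2 of each.

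Values are log2 levels after RMA, which puts the arrays on a common scale and gives 1 value per probe set. Median levels over all probe sets lay between 5.96 and 6.00 in the 7 arrays, and precision is limited by their number. Mex3a itself was lower in all KO arrays: its brighter probe set read 7.41, 7.38, 7.50 and 7.01 (WT) against 6.18, 6.29 and 6.07 (KO), a log2 difference of -1.13 (SE 0.13; limma, adjusted p = 0.334 over 45037 probe sets). Markers of epithelial identity such as Cldn7 and Krt19 were bright, at mean levels of 12.27 and 11.95. Of 18 measured leukocyte markers, 3 (Ptprc, Adgre1 and Itgam) lay in the lowest 25% of probe sets (mean level up to 4.87) and the other 15 above it, with Lyz2 at 12.21, Cd68 at 7.30 and Csf1r at 6.89.

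Slc15a2 was the member that moved, and on 1 of its 3 probe sets only. The probe set 1417600_PM_at read 5.79, 5.59, 5.64 and 7.85 in WT replicates 1 to 4 and 7.90, 8.31 and 8.26 in KO replicates 1 to 3. The arrays thus fell into a low set of 3 WT arrays and a high set made of WT replicate 4 and all 3 KO arrays, with no array between 5.79 and 7.85. WT replicate 4 stood 2.06 above the next WT array and 0.0485 below the lowest KO array, so the genotypes did not overlap, but only by that margin. The WT mean was 6.22 ± 1.09 (SD, n = 4) and the KO mean 8.16 ± 0.22 (SD, n = 3).

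**Figure D1:**
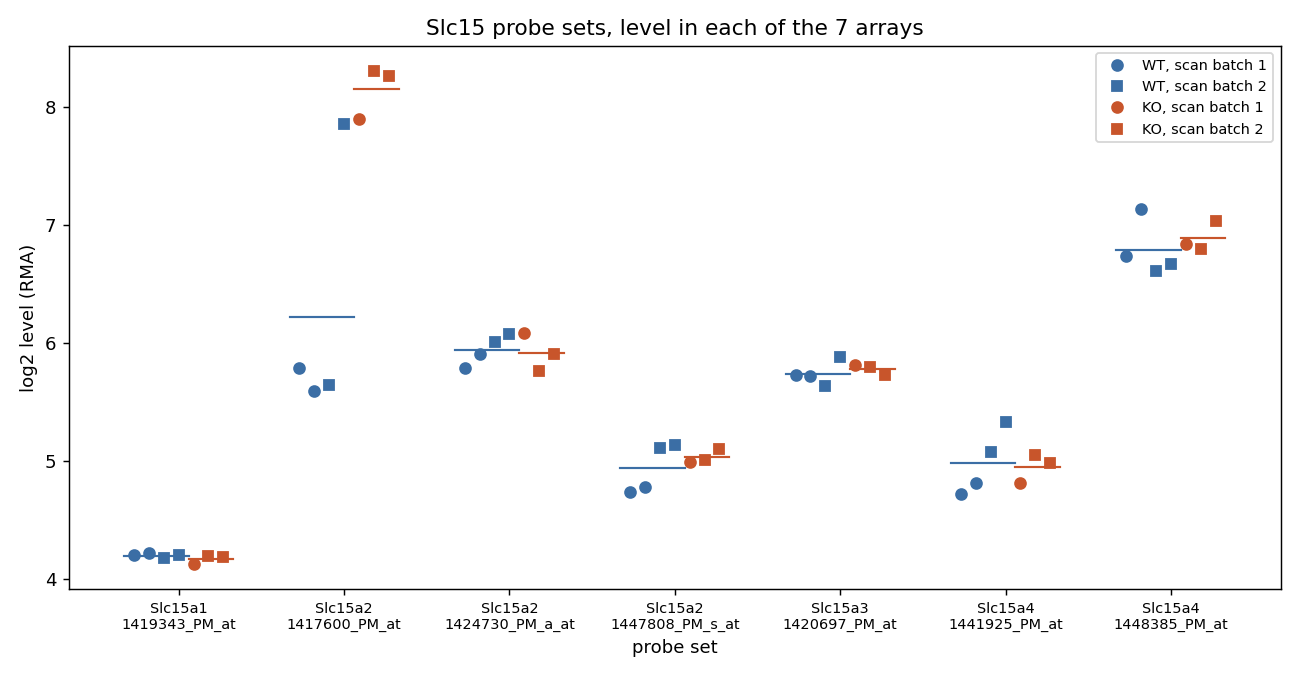
Each point is the log2 level of 1 array for 1 of the 7 Slc15 probe sets (horizontal axis), coloured by genotype, with the shape giving the scan batch and lines the group means. On 1417600_PM_at of Slc15a2, WT replicate 4 at 7.85 sits with the KO arrays (7.90 to 8.31) and away from the other WT arrays (5.59 to 5.79), while the other 6 probe sets overlap between the genotypes.

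The fitted KO minus WT difference of this probe set, with scan batch as a covariate, was 1.81 (SE 0.45), a 3.50-fold higher level in KO. Within scan batch 1 the difference was 2.21, from 1 KO array, and within scan batch 2 it was 1.54. With 1 array left out, the difference ran from 1.32 without WT replicate 3 to 2.43 without WT replicate 4. It kept its direction in all 17 alternative fits. As every KO array lay above every WT array, this was largely given in advance, and nothing is read from it. Over the whole table, limma called 0 of 45037 probe sets between the genotypes at adjusted p under 0.05 (0%), Slc15a2 included, and 4231 (9.39%) had an unadjusted p under 0.05. Without WT replicate 4 the count was 1, the probe set 1417600_PM_at itself. As the gene was chosen on this contrast, nothing is read from that call. KO and WT did not overlap on 4.96% of all probe sets, and on 1 of the 7 Slc15 probe sets. As that contrast chose the family, nothing is read from this count.

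The spread of this probe set was wide against the rest of the array. Its range over the 7 arrays was 2.72, against a median range of 0.33 over all probe sets, and only 41 probe sets had a wider one. Its largest step between neighbouring arrays in rank order, 2.06, was exceeded by 21 probe sets. These ranks describe the values for which the gene was chosen.

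**Figure D2:**
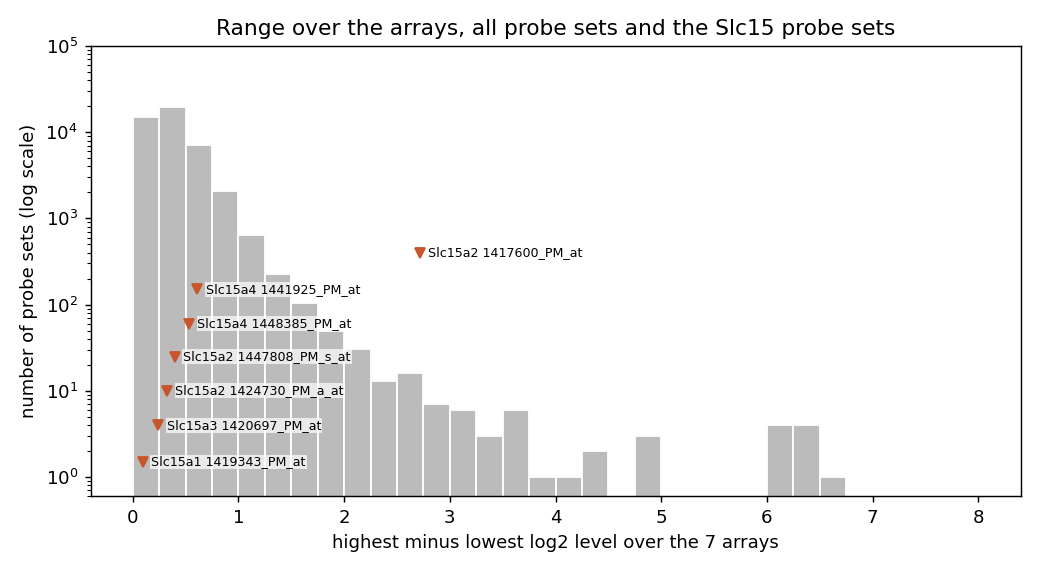
Bars count all 45037 probe sets (log scale) by their range, the highest minus the lowest log2 level over the 7 arrays. Triangles mark the ranges of the 7 Slc15 probe sets, from 0.0939 for Slc15a1 to 2.72 for Slc15a2 1417600_PM_at, and the height of a triangle carries no value.

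The other 2 probe sets of Slc15a2 did not show this step. On 1424730_PM_a_at the WT values were 5.79, 5.91, 6.01 and 6.08 and the KO values 6.09, 5.76 and 5.91. WT replicate 4 and KO replicate 1 were the highest, but KO replicate 2 was the lowest array, and the difference was -0.03 (SE 0.11). On 1447808_PM_s_at the WT values were 4.74, 4.78, 5.11 and 5.14 and the KO values 4.99, 5.01 and 5.11, with a difference of 0.05 (SE 0.07). There the 2 lowest arrays were the WT arrays of scan batch 1, and the KO arrays lay inside the WT range. In Affymetrix names the suffix a marks a set that reads several transcripts of 1 gene, and the suffix s a set whose probes can also match transcripts of other genes. Which part of the Slc15a2 transcript each set reads was not analysed here. The step of 1417600_PM_at is therefore a measurement of 1 probe set, not shared by the others annotated to the gene. The set 1447808_PM_s_at was dim, at a mean of 4.98 with 28.1% of probe sets lower, so its lack of a step says little. The set 1424730_PM_a_at was brighter, at a mean of 5.93 with 49.3% lower. In bulk RNA, more cells with a transcript and more transcript per cell cannot be told apart.

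**Figure D3:**
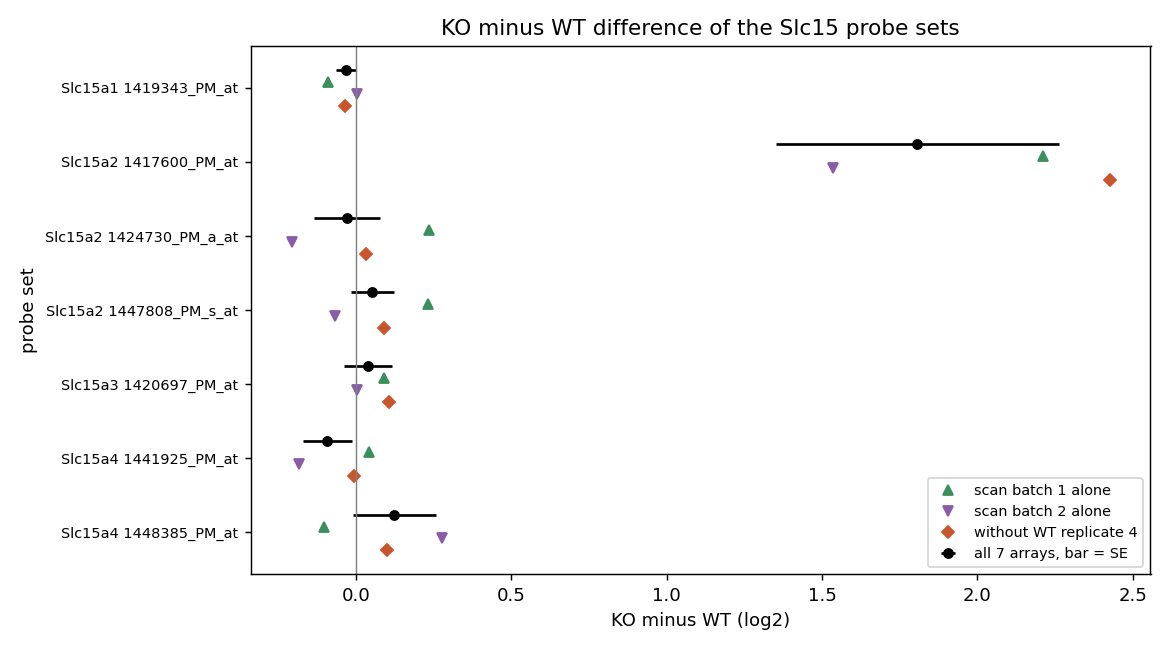
KO minus WT difference (log2, horizontal axis) of each Slc15 probe set, with the fit to all 7 arrays in black (bar, SE) and coloured symbols for scan batch 1 alone, scan batch 2 alone and the fit without WT replicate 4. Slc15a2 1417600_PM_at lies between 1.54 and 2.43 in these fits, while the other 6 sets lie near 0 and most change sign between them.

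Slc15a2 lies on chromosome 16 of GRCm38.p6 (chr16:36750161-36785158), on the minus strand. The 3 measured protein-coding genes on either side were looked at after the values of Slc15a2 had been seen. They were Ildr1, Cd86 and Casr on one side and Eaf2, Iqcb1 and Golgb1 on the other. None of the 6 showed a step: their ranges over the arrays were 0.19 to 0.37, their differences -0.16 to 0.12, and KO and WT overlapped for each. Ildr1 lay in the lowest 25% of levels, and Cd86 and Iqcb1 were dim at means of 5.15 and 5.22, so a step there could be missed. Casr, the calcium-sensing receptor, for example read 6.80, 6.91, 6.91 and 6.95 (WT) against 6.85, 6.98 and 6.79 (KO).

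The sequence before the annotated start of Slc15a2 is shown beside those of Slc15a1 and Slc15a4 as a description. A link between sequence and level was not tested. Each is the 250 bases upstream of the start in RefSeq (GRCm38.p6, minus strand, read in the direction of the gene), and capitals mark GC boxes, the binding letters of the factor Sp1 (GGGCGG on either strand).
Slc15a2, chr16:36784963-36785212: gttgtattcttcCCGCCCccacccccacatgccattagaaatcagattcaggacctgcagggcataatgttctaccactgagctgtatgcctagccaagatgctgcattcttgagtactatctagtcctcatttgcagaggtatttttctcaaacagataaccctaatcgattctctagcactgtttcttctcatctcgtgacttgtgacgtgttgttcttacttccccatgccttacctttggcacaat
Slc15a1, chr14:121505255-121505504: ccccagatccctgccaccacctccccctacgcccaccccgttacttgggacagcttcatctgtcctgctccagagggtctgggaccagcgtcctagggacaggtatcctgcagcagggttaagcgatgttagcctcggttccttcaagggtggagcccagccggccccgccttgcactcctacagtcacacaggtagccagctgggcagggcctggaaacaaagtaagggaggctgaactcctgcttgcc
Slc15a4, chr5:127617393-127617642: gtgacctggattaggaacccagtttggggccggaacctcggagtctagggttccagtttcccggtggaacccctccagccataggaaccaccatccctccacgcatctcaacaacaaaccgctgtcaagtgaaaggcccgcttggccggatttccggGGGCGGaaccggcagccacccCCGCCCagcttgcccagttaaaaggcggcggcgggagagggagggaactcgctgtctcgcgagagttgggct

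The 3 windows differed in base composition. The Slc15a2 window held 4 CpG dinucleotides and 45.2% G and C, the Slc15a1 window 7 and 62.0%, and the Slc15a4 window 17 and 62.8%, against a median of 6 CpG over 32851 upstream windows. Slc15a4 held 2 GC boxes, at 93 and 72 bases before the start, Slc15a2 held 1, at 238 bases, and Slc15a1 none. Of all windows 32.7% held one. No window held TATAAA (12.4% of all windows), the Cdx2 core TTTATG (10.8%) or CCAAT (33.8%) on either strand. The annotated spans of Slc15a2 and Slc15a4 reach beyond these starts, so each gene also has a transcript that begins further upstream. A match of letters describes the window and is not a measured binding site.

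Slc15a1, the classical intestinal carrier, read near the floor of the array in every sample. Its probe set gave 4.21, 4.22, 4.18 and 4.20 (WT) against 4.12, 4.20 and 4.19 (KO). It was the 1 member in the lowest 25% of probe sets, with only 5.76% of probe sets lower on average, and its range of 0.0939 left no step between arrays. The difference was -0.03 (SE 0.03). At such a level an array cannot tell a low level from none, so a fall or a small change in Slc15a1 was not detectable here. No array read above 4.22.

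Slc15a3, the endolysosomal carrier also known from macrophages, read 5.73, 5.72, 5.64 and 5.88 (WT) against 5.82, 5.80 and 5.73 (KO). All 3 KO arrays lay inside the WT range, and the difference was 0.04 (SE 0.08). WT replicate 4 was the highest of the 7 arrays.

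Slc15a4, the histidine and peptide carrier needed for nucleic acid sensing in endosomes, was read by 2 probe sets that did not follow each other. On 1448385_PM_at the WT arrays gave 6.74, 7.14, 6.61 and 6.67 and the KO arrays 6.84, 6.79 and 7.03, a difference of 0.12 (SE 0.13). WT replicate 2 was the highest there. On 1441925_PM_at the values were 4.72, 4.82, 5.07 and 5.33 (WT) against 4.81, 5.05 and 4.99 (KO), a difference of -0.09 (SE 0.08), with WT replicate 4 the highest. Both sets overlapped between the genotypes. Across the 7 Slc15 probe sets, WT replicate 4 was the highest WT array on 5, and over all probe sets it was so on 27.0%. The 5 include every probe set of Slc15a2, among them 1417600_PM_at, by whose KO versus WT difference the family was chosen. WT replicate 4 also had the highest median level of all arrays, at 6.00. Nothing is therefore read from the count of 5. Slc15a5, a family member outside those followed here, stayed between 3.95 and 4.02.

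Scan batch is a contrast that the choice of the genes did not use, and it was tested in the same limma fit. Of the 7 Slc15 probe sets 0 passed at adjusted p under 0.05, as did 0% of all probe sets, and 2 had an unadjusted p under 0.05, against 12.2% of all. These were Slc15a4 1441925_PM_at, higher in batch 2 by 0.34 (SE 0.08; adjusted p = 0.271), and Slc15a2 1447808_PM_s_at, higher by 0.24 (SE 0.07; adjusted p = 0.299). On these 2 probe sets the batches did not overlap: 4.72 to 4.82 against 4.99 to 5.33 for the former, and 4.74 to 4.99 against 5.01 to 5.14 for the latter. Over all probe sets 8.7% had batches that did not overlap. For 1417600_PM_at of Slc15a2 the batch coefficient was 0.79 (SE 0.46; limma, adjusted p = 0.496), and each batch held both low and high arrays.

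Peptidases of the cell surface cut luminal peptides into the dipeptides and tripeptides that Slc15a1 and Slc15a2 carry. Of 14 listed, 11 were measured, 6 with a positive and 5 with a negative KO minus WT difference and a median of 0.00, against -0.02 over all probe sets. None passed over all probe sets (limma), and 1 had an unadjusted p under 0.05. That was Mme, neprilysin, at 6.67, 6.72, 6.89 and 6.58 (WT) against 7.49, 7.49 and 6.81 (KO), a difference of 0.57 (SE 0.18; limma, adjusted p = 0.494). KO replicate 3 lay inside the WT range. Tmprss15, the enteropeptidase of the duodenum, lay in the lowest 25% of levels and differed by -0.08 (SE 0.05; limma, adjusted p = 0.646).

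Cytosolic peptidases split the imported peptides into amino acids. All 16 listed were measured and lay above the lowest 25% of levels, 7 with a positive and 9 with a negative difference and a median of -0.01. None passed, and 2 had an unadjusted p under 0.05. Tpp2, tripeptidyl peptidase, differed by 0.25 (SE 0.09; limma, adjusted p = 0.508), but its WT arrays of scan batch 1, at 9.16 and 9.19, were close to the KO arrays at 9.18 to 9.25. Blmh, bleomycin hydrolase, was 9.65, 9.69, 9.59 and 9.58 (WT) against 9.77, 9.76 and 9.91 (KO) without overlap, a difference of 0.19 (SE 0.08; limma, adjusted p = 0.518).

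Peptide uptake draws on the proton gradient kept by the sodium-proton exchanger Slc9a3, on the sodium pump and on the scaffolds that hold these proteins in the brush border. Of 9 listed genes 6 were measured, 2 with a positive and 4 with a negative difference and a median of -0.06, and none passed. Slc9a3r1, the scaffold NHERF1, read 8.62, 8.68, 8.26 and 8.28 (WT) against 8.64, 8.98 and 9.03 (KO). KO replicate 1 lay inside the WT range, and the difference of 0.44 (SE 0.15; limma, adjusted p = 0.504) was -0.01 within scan batch 1 and 0.73 within scan batch 2. Atp1b1, the beta subunit of the sodium pump, differed by 0.06 (SE 0.05; limma, adjusted p = 0.697).

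Slc15a3 and Slc15a4 are linked to sensing by receptors such as Nod1 and the endosomal Toll-like receptors. Of 15 listed genes of this sensing 11 were measured, 6 with a positive and 5 with a negative difference and a median of 0.00, and none passed. Tlr3, the endosomal receptor of double-stranded RNA, read 8.71, 8.51, 8.53 and 8.48 (WT) against 9.00, 8.82 and 8.81 (KO) without overlap, a difference of 0.34 (SE 0.08; limma, adjusted p = 0.472). 5430427O19Rik, the mouse gene of Tasl, the adaptor that binds Slc15a4, lay in the lowest 25% of levels and differed by -0.08 (SE 0.02; limma, adjusted p = 0.483). Among 4 transcription factors described as acting on Slc15a1, Sp1 differed by 0.19 (SE 0.08; limma, adjusted p = 0.529) and Cdx2, the intestinal homeobox factor, by -0.16 (SE 0.11; limma, adjusted p = 0.657), and the median of the 4 was 0.09. Over all 48 genes of these lists limma called 0, and 8 (16.7%) had an unadjusted p under 0.05, 7 higher and 1 lower in KO, beside 9.39% of all probe sets. The gene lists, here and below, take 1 probe set per gene. In the limma fit with 1 probe set per gene and the lowest 25% left out, 1462 of 12822 genes had such a p. Among the 48 genes, KO and WT did not overlap for 2 (4.17%), beside 4.96% of all probe sets.

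**Figure D4:**
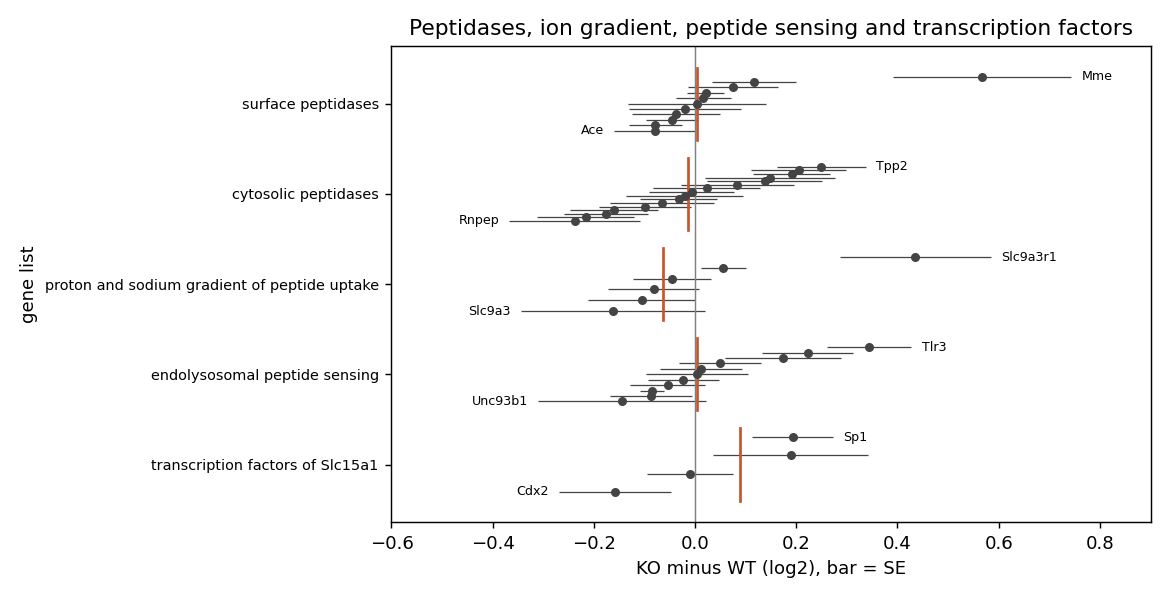
KO minus WT difference (log2, horizontal axis) of each measured gene in the 5 gene lists around Slc15 transport, with the SE as a bar and a vertical line at the median of the list. The medians lie between -0.06 and 0.09, and the genes with the highest and lowest differences are named, among them Mme at 0.57 and Slc9a3r1 at 0.44.

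The genes most like Slc15a2 1417600_PM_at were sought among 723 other probe sets with 1 gene symbol, a mean level above the lowest 25% and a range of at least 1. Likeness was Pearson's r over the 7 arrays, given as a description: the arrays share genotype and scan batch, and those of Slc15a2 fall into a low and a high set. No probe set exceeded an r of 0.9, and 3 exceeded 0.8. Mptx1, a mucosal pentraxin of the crypt, came first (r = 0.84), with 5.60, 5.15, 5.51 and 5.71 (WT) against 6.59, 6.33 and 6.86 (KO), so that WT replicate 4 stayed with the other WT arrays. Acod1, the enzyme that makes itaconate, followed (r = 0.82), with 5.80, 5.94, 5.38 and 6.36 (WT) against 5.95, 6.52 and 6.35 (KO). There WT replicate 4 stood with the upper KO arrays, but KO replicate 1 did not. The histone gene H2bc18 (r = 0.81) read 6.85 in WT replicate 4 and 6.74 to 7.08 in KO, and WT replicate 2 was near them at 6.61.

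The next genes were Mark1, a microtubule-affinity kinase (r = 0.76), Sval1 (r = 0.74), the adhesion protein gene Hepacam2 (r = 0.73), Thbs2 for a matrix thrombospondin (r = 0.72), Rdx for the membrane-cytoskeleton linker radixin (r = 0.68), Tnfsf10 for the death ligand TRAIL (r = 0.67) and the sideroflexin gene Sfxn3 (r = 0.67). None of the 10 showed the 2.06 step of Slc15a2. Other probe sets of Mark1, at r = 0.45 and 0.61, of Thbs2, at 0.38, and of Tnfsf10, at 0.59, were less like it. The most opposed gene was Mex3a (r = -0.91). Mex3a is the gene altered in KO and Slc15a2 was chosen on KO versus WT, so nothing is read from this r. WT replicate 4, the 1 WT array with high Slc15a2, had the lowest Mex3a level of the WT arrays, 7.01, still above every KO array. Bmp7, a secreted growth factor (r = -0.83), read 8.31, 7.73, 8.05 and 7.63 (WT) against 7.22, 7.05 and 7.47 (KO). Jmjd6 (r = -0.79), the calcium channel subunit gene Cacnb1 (r = -0.78) and Igfbp4, for a binding protein of insulin-like growth factors (r = -0.76), completed the 5. WT replicate 4 was also the lowest WT array for Bmp7, Jmjd6 (7.46) and Igfbp4 (9.76), but not for Cacnb1. These genes, Mex3a included, were picked as opposed to a probe set on which WT replicate 4 alone was high among WT arrays. Low values in that array were thus largely given in advance, and nothing is read from them. Second probe sets of these genes were less opposed, at r = -0.82 for Mex3a, -0.62 for Bmp7 and -0.50 for Igfbp4.

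**Figure D5:**
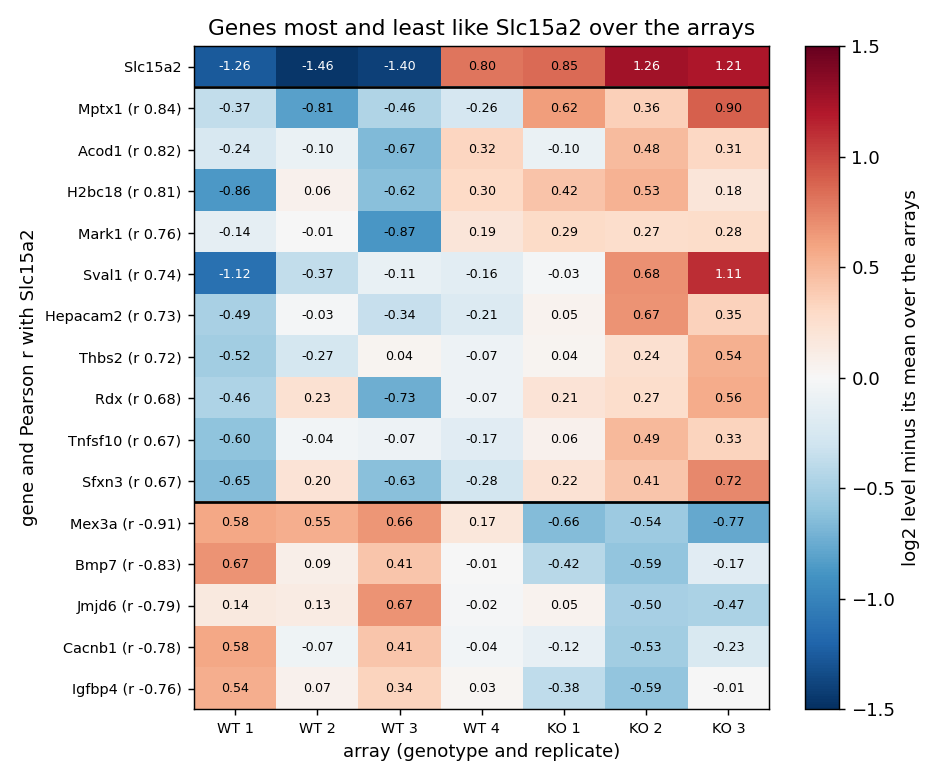
Log2 level of each array minus the mean over the arrays (colour and printed value) for Slc15a2 1417600_PM_at, the 10 genes with the highest and the 5 with the lowest Pearson's r to it, over the 7 arrays. Slc15a2 steps up in WT replicate 4 and the KO arrays, whereas Mptx1 is above its mean in the KO arrays alone and Mex3a is lowest there.

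Markers of cell types that can carry Slc15 transporters were set beside these values. Of 18 measured leukocyte markers, 7 had a positive and 11 a negative KO minus WT difference, and their mean level ran from 6.17 to 6.23 in WT and from 6.15 to 6.32 in KO. Of 10 measured markers of enteric glia and neurons, 2 were positive and 8 negative, with mean levels of 5.53 to 5.66 in WT and 5.54 to 5.57 in KO. Of these 10, Gfap and Snap25 lay in the lowest 25% of levels and the other 8 above it, among them the glial genes Sox10 at 6.53 and S100b at 5.04. WT replicate 4 stood 0.02 above the average of all arrays for leukocyte markers and 0.08 for glia and neurons, and the KO arrays between -0.07 and 0.10 and between -0.04 and -0.01. Small intestinal enterocyte markers had 2 positive and 11 negative differences of 13, with a median of -0.05 against -0.02 over all probe sets. The 2 positive ones, Mgam (0.61) and Slc5a1 (0.39), were the brightest of the list. This list stood at -0.05, -0.004, 0.02 and -0.02 (WT) and at -0.08, 0.08 and 0.06 (KO) relative to all arrays. Relative to all arrays, goblet and secretory markers stood at -0.65, 0.17, 0.19 and -0.19 in WT replicates 1 to 4. In the KO arrays they stood at -0.18, 0.29 and 0.38. Colonocyte markers stood at -0.42, -0.07, 0.10 and -0.17 (WT) and at -0.30, 0.85 and 0.00 (KO). Over all 10 marker lists limma called 0 of 104 genes, and 9 (8.65%) had an unadjusted p under 0.05, beside 9.39% of all probe sets. For Gapdh, the 3' probe set minus the 5' probe set (log2), a measure of RNA integrity, was -0.131, -0.209, -0.121 and -0.121 in WT replicates 1 to 4 and -0.154, -0.213 and -0.239 in KO replicates 1 to 3, so WT replicate 2 lay inside the KO range. For actin the WT arrays, at -0.497 to -0.429, lay inside the KO range of -0.515 to -0.301. The part of any of these in the Slc15a2 step was not tested.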

How the data were processed

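The deposited table holds RMA values on a log2 scale, computed by the authors with RMA per the submitters' processing notes. No version, filter or adjustment for batch is given in the sources used here. Of 45141 probe sets 104 controls were left out. Probe sets were named through the platform annotation where it gives 1 symbol (28898 of 45037; 551 have several and 15588 none). KO and WT were compared in limma (version 3.58.1, R 4.3.3; lmFit, eBayes with a trend on mean level) with scan batch as covariate, 4 residual degrees of freedom, two-sided tests and Benjamini-Hochberg adjustment over all 45037 probe sets, without a level filter so that every Slc15 probe set was fitted. The fit was tested on simulated data. Gene lists use the probe set of highest mean. Named are the members, Mex3a, the 2 genes of smallest p in each pathway list and the 10 most and 5 least like Slc15a2; neighbouring genes, Slc15a5 and marker examples were added. Members and lists were chosen with earlier results of these data known.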

Additional observations from a re-analysis of the deposited data

Results flagged for a closer look

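On probe set 1417600_PM_at of Slc15a2, WT replicate 4 at 7.85 stood above the other 3 WT arrays by 0.914 of the WT range, where Dixon's critical value for 4 samples is 0.829. This is a description and no test, since the gene was chosen on these values and the position of the array was known. Of 33 probe sets looked at in this way 1 lay beyond that value, which chance passes in about 5% of independent groups. The 33 share the same arrays and were partly chosen on these data, so nothing is read from the number. Without this array the KO minus WT difference was 2.43 in place of 1.81.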

How the results depend on the processing

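The KO minus WT difference of Slc15a2 1417600_PM_at kept its direction in all 17 alternatives, from 1.32 to 2.43. The number of probe sets called between the genotypes was 0 in 16 of 17 alternatives, and 0 to 1 with 1 array left out, the 1 being 1417600_PM_at without WT replicate 4, from which nothing is read since the gene was chosen on this contrast. No gene of the lists around Slc15 transport was called in any of the 17, and no Slc15 probe set for scan batch in any of 14 (limma). In scan batch 1 alone the differences of Tmprss15, Slc9a3r1 and Atp1b1 turned, to 0.030, -0.011 and -0.025; the cause was not tested. The genes like Slc15a2 depended on the setting: of the 10, 6 stayed among the first 10 by Spearman's rho, 1 with scan batch means removed, 0 and 1 with the probe sets 1424730_PM_a_at and 1447808_PM_s_at as reference, and 2 to 7 with 1 array left out, the fewest without WT replicate 4. With 4 and 3 arrays and amplified RNA, differences near the spread between arrays could not be resolved. No paired analysis was possible because the labels give no replicate numbers shared between the groups.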
